A study of Danio rerio with 6 samples.

Results

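The genes described here encode chromatin regulators and corepressors: histone deacetylases, histone lysine demethylases and methyltransferases, arginine methyltransferases, Polycomb repressive complex 2, DNA methyltransferases, chromatin remodelers, proteins that read histone marks, PR domain proteins and Groucho corepressors. They were taken by gene symbol, as every probe set whose single annotated symbol begins with hdac, kdm, kmt, setd, smyd, prmt, ehmt, ezh, suz12, smarc, prdm, dnmt, cbx or rbbp, or with chd, tle or brd followed by a digit, together with eed. This gave 128 of the 15617 probe sets of the array, for 93 of 8793 genes that the annotation names. A choice by symbol also takes in products whose main known work lies elsewhere, such as setd3, an actin histidine methyltransferase, hdac6, a deacetylase of tubulin, hdac10, a polyamine deacetylase, rbbp8, which acts in resection of DNA ends, and rbbp9, a serine hydrolase.

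Messenger RNA was measured on 6 Affymetrix arrays, 3 of prdm1a mutants (a null genotype, by the labels) and 3 of wild type, all of RNA from whole zebrafish embryos collected 25 hours after fertilization (25 hpf). Embryos were sorted into mutant and wild type by eye, from their phenotype. The sample titles do not say whether heterozygous embryos were among those sorted as wild type. The values are probe set signals, given here as log2 signal, and a log2 fold change is mutant minus wild type. Nothing in the labels ties replicates to separate clutches, and the p-values therefore cover only the spread between these samples, which may be technical.

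The gene prdm1a encodes a zinc finger protein with a PR domain, a relative of the SET domain of histone methyltransferases. Its mammalian counterpart, PRDM1 or Blimp-1, is known mainly as a repressor that binds DNA and recruits enzymes that alter histones. Among the partners described in mammalian cells are the deacetylase HDAC1, the arginine methyltransferase PRMT5, the lysine demethylase KDM1A (LSD1), the histone methyltransferase G9a and Groucho corepressors of the TLE family. The comparison therefore asks whether transcripts of such partners, and of the chromatin machinery they belong to, differ in level in embryos labelled as prdm1a mutants. The annotation used gave no probe set to prdm1a, prdm1b or ehmt2, the zebrafish gene for G9a, and these are not analysed here. The same held for hdac2, ehmt1a and ehmt1b.

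In array medians, which lay between 132 and 148, the groups overlapped, and log2 signals of mutant and wild-type arrays correlated at 0.923 to 0.949 over tested probe sets. Correlations within a genotype were 0.967 to 0.969 between mutant arrays and 0.948 to 0.976 between wild-type arrays. Muscle and neural crest markers moved with genotype. The summed signal of 12 fast muscle genes ran from 152587 to 196365 in the mutant and from 100345 to 120680 in the wild type, with 6 of the 12 rising by the test given below. That of 3 slow muscle genes ran from 5295 to 7228 in the mutant and from 16363 to 18614 in the wild type, with 2 falling. Of 6 neural crest genes 3 fell (summed signal 3388 to 4039 in the mutant, 5332 to 6225 in the wild type). Of 15 genes of dividing cells, where many chromatin genes are known to be high, none of 14 tested passed (45752 to 48991 in the mutant, 40259 to 47755 in the wild type). Of the other lists, 1 of 8 neuronal genes, 1 of 4 erythroid, 1 of 4 epidermal and 0 of 3 heart genes fell and none rose, and the summed neuronal signal was 4899 to 5808 in the mutant and 5815 to 6665 in the wild type. No marker was listed at 0 in any of these lists. In whole embryos, fewer cells of a type and less RNA per cell cannot be told apart. The 3' over 5' signal ratio at the control probe sets of actc1b, which is often read as a measure of RNA integrity, averaged 33.6 ± 6.60 on mutant arrays, against 69.1 ± 20.3 on wild-type arrays (SD, n = 3 each), without overlap. At gapdhs the same ratio averaged 6.0 ± 2.37 on mutant arrays (3.28 to 7.65), against 11.8 ± 2.66 on wild-type arrays (9.16 to 14.5; SD, n = 3 each), again without overlap. The part of these markers and ratios in the values below was not tested. Some fits below hold the actc1b or the gapdhs ratio as a covariate. Since both ratios separated the genotypes, these fits cannot tell a ratio from genotype.

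No chromatin regulator passed the test between prdm1a mutants and wild type. Of the 128 probe sets, 102 for 80 genes lay above the filter on low signal and were tested, and 0 of 102 changed past a Benjamini-Hochberg adjusted p of 0.05 in limma. Over the whole array 3.39% of 10851 tested probe sets passed. At an unadjusted p under 0.05 the members numbered 13, with 7 higher and 6 lower in the mutant, a share of 12.7% beside 20.6% over all tested probe sets. The smallest adjusted p of a member was 0.0572, for the arginine methyltransferase gene prmt3.

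Differences were small for most members. The median log2 fold change was 0.04 over the 102 probe sets and 0.02 over all tested probe sets, and the median size regardless of sign was 0.19 and 0.25. A size under 0.25 was found for 66 of 102 members (64.7%) and for 49.5% of all tested probe sets. A 2-fold difference or more in the fitted value was found for 3 members, hdac6, smarca4a and setdb1a (2.94%, beside 6.03% over all tested probe sets). For 75 members the 95% interval of the difference lay wholly within a 2-fold change in either direction (67.6% over all tested probe sets), and for 40 within a 1.5-fold change. The other 27 had intervals that reached beyond 2-fold, so 3 arrays per genotype do not bound their change to less than that. The standard error of a member's log2 fold change ran from 0.10 to 0.52, with a median of 0.21, beside 0.22 over all tested probe sets. Tested members were also brighter, with a median mean log2 signal of 8.68, beside 8.28 over all tested probe sets. Whether brightness accounts for their smaller differences was not tested. Mutant and wild-type arrays did not overlap for 21 members (20.6%), 10 higher and 11 lower in the mutant, where 27.0% of all tested probe sets were separated so.

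**Figure D1:**
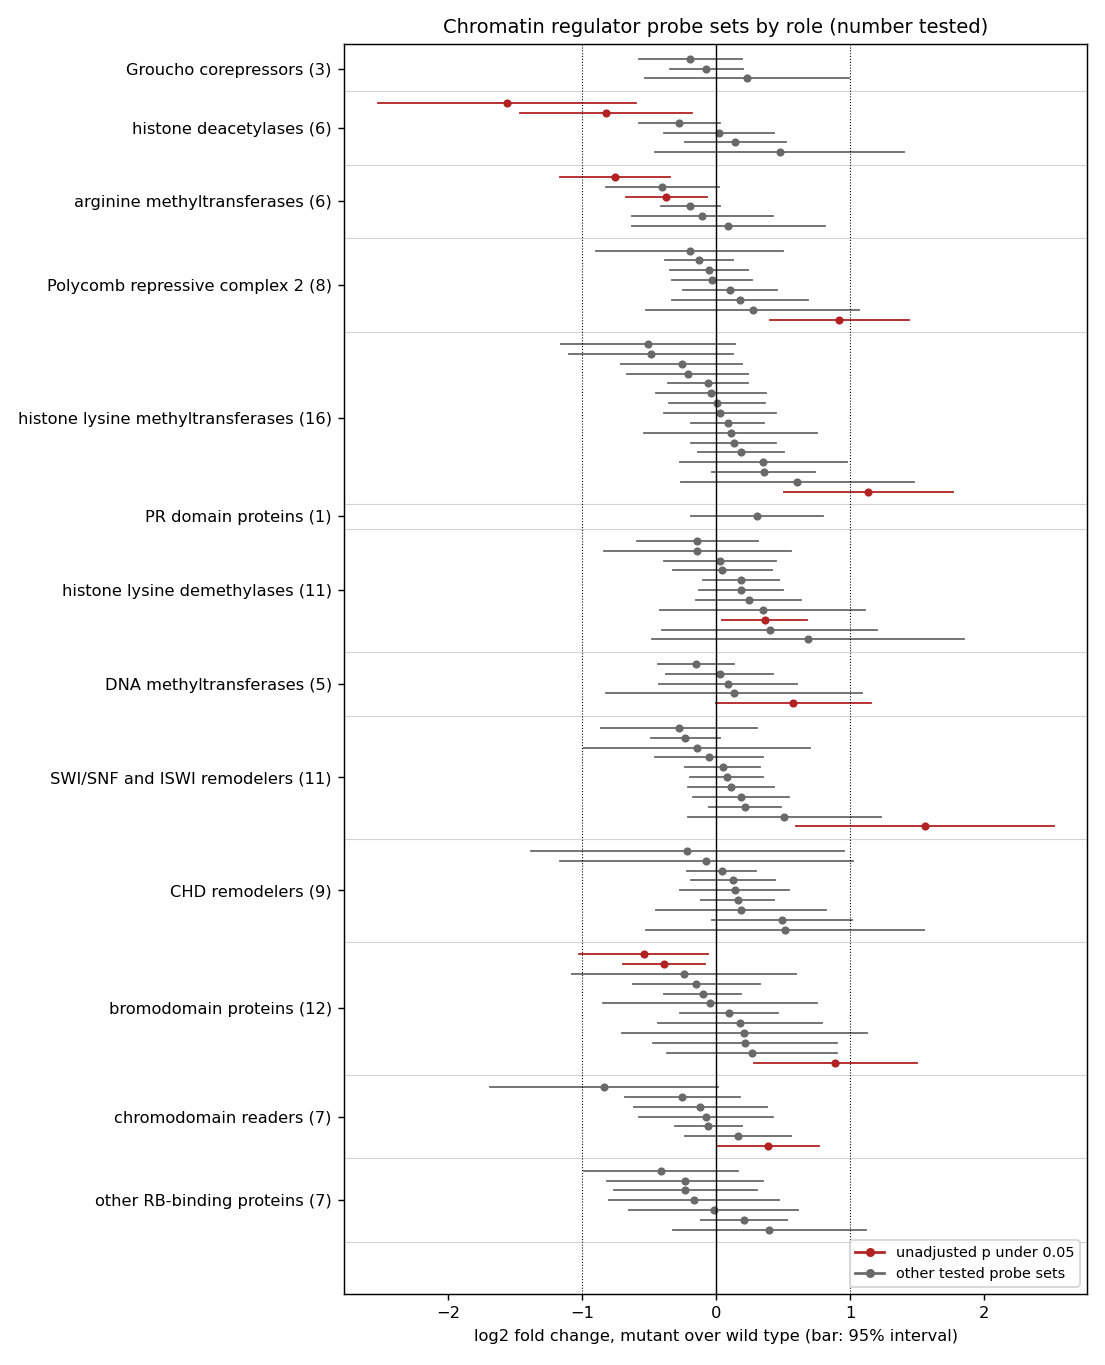
Log2 fold change of mutant over wild type (x axis) for the 102 tested probe sets, grouped by role (y axis, number of probe sets in brackets); points are limma estimates from 3 arrays per genotype and bars their 95% intervals, dotted lines mark 2-fold, and red marks an unadjusted p under 0.05. Most intervals include 0, and 13 probe sets are red.

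No tested zebrafish counterpart of a PRDM1 partner passed. The deacetylase gene hdac1, which encodes the catalytic subunit of several corepressor complexes, had log2 signals of 12.41, 12.29 and 12.21 in the mutant arrays and 12.76, 12.35 and 12.62 in the wild-type arrays. The highest mutant array lay above the lowest wild-type array, and the difference was -0.27 (SE 0.13, limma adjusted p = 0.282), with a 95% interval of -0.57 to 0.03. Prmt5 encodes the main enzyme of symmetric arginine dimethylation. Its log2 signals were 10.15, 10.37 and 10.12 in mutant arrays, against 10.65, 10.56 and 10.54 in wild-type arrays. Every mutant array was below every wild-type array, by -0.37 on average (SE 0.13, limma adjusted p = 0.159; 95% interval -0.67 to -0.07). Kdm1a, which encodes a demethylase of histone H3 found with the CoREST corepressor, lay the other way. Its log2 signals were 11.35, 11.08 and 11.18 in mutant arrays, against 10.92, 10.95 and 10.64 in wild-type arrays, again without overlap, and the difference was 0.36 (SE 0.14, limma adjusted p = 0.188; 95% interval 0.05 to 0.68). With the actc1b 3' over 5' ratio as a covariate the kdm1a value was -0.08 (limma adjusted p = 0.931). With the gapdhs ratio kdm1a kept its sign, and prmt5 kept its sign with either ratio. Neither fit can tell its ratio from genotype. None of these 3 genes passed, and their intervals lay within a 2-fold difference in either direction. Of all tested probe sets 27.0% were separated between genotypes, as prmt5 and kdm1a were.

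Groucho corepressors, which bind repressors such as PRDM1 and have no DNA-binding domain of their own, were represented by tle2a, tle3a and tle3b. The genes tle1, tle2b, tle2c, tle4 and tle5 carried no named probe set, so most of the family was not measured here. The log2 signal of tle2a was 10.92, 11.10 and 11.0 in mutant arrays, against 11.12, 11.13 and 10.98 in wild-type arrays. The groups overlapped, with a difference of -0.07 (SE 0.12, limma adjusted p = 0.775; 95% interval -0.35 to 0.20). The brightest tle3b probe set was at 9.72, 9.61 and 9.77 in mutant arrays, against 9.95, 10.14 and 9.59 in wild-type arrays, a difference of -0.19 (SE 0.17, limma adjusted p = 0.565). A dimmer tle3b probe set, whose suffix marks it as one that can detect several transcripts, was at 0.23 (SE 0.34, limma adjusted p = 0.745). One more tle3b probe set and the only one of tle3a lay below the filter, tle3a at 4.89, 5.50 and 6.32 in mutant arrays, against 4.75, 5.46 and 4.13 in wild-type arrays.

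**Figure D2:**
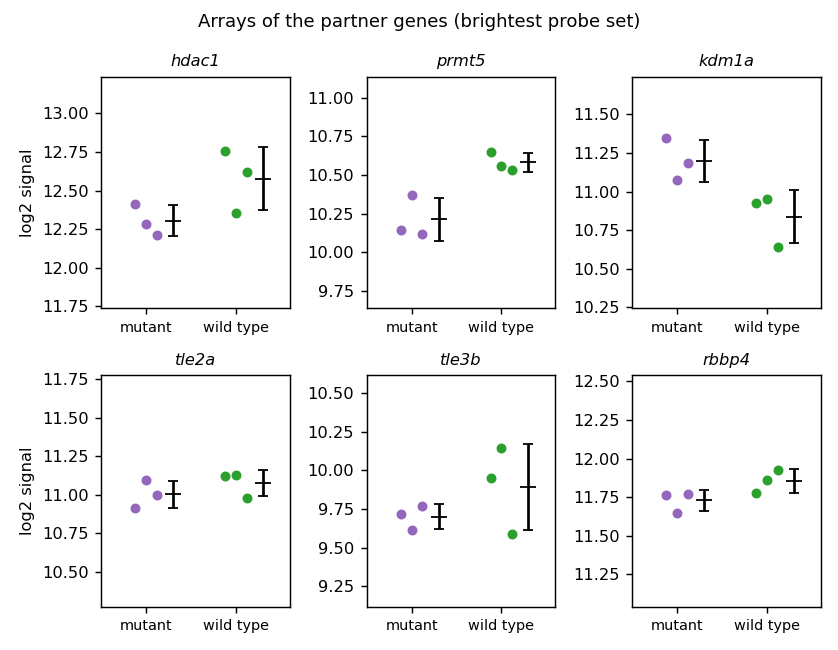
Log2 signal (y axes, each panel with its own range) of the brightest probe set of 6 genes in the 3 mutant and 3 wild-type arrays; points are arrays, and the black mark is the mean with its SD. The arrays of prmt5, kdm1a and rbbp4 do not overlap between genotypes, and those of hdac1, tle2a and tle3b do. Over all tested probe sets 27.0% are separated so.

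No arginine methyltransferase passed, though most lay lower in the mutant. Of 6 tested genes, 5 had a log2 fold change below 0 (median -0.28, beside 0.02 over all tested probe sets). The arrays of 4, prmt1, prmt3, prmt5 and prmt6, did not overlap between genotypes. Over the array 13.8% of tested probe sets were lower in this way. Prmt3, which encodes an enzyme that methylates the small ribosomal subunit protein Rps2, had log2 signals of 8.33, 8.74 and 8.22 in mutant arrays, against 9.17, 9.13 and 9.25 in wild-type arrays. The wild-type arrays lay close together, and the log2 difference was -0.75 (SE 0.18, limma adjusted p = 0.0572; 95% interval -1.16 to -0.35), a 1.69-fold lower signal. Prmt6, whose product makes asymmetric dimethylarginine on histone H3, was at 8.22, 7.92 and 8.10 in mutant arrays, against 8.68, 8.48 and 8.27 in wild-type arrays (-0.40, SE 0.19, limma adjusted p = 0.262). Prmt1, the main asymmetric arginine methyltransferase gene, was at -0.19 with a 95% interval of -0.41 to 0.03. Prmt7 (-0.10) and prmt2 (0.09) overlapped between groups, and prmt8b lay below the filter.

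Polycomb repressive complex 2 places a repressive methyl mark on histone H3. It holds the methyltransferase Ezh2, the subunits Eed and Suz12, and the histone-binding proteins Rbbp4 and Rbbp7. All 8 of its probe sets, for 6 genes, were tested and none passed (4 above 0 and 4 below, median 0.04). Ezh1, also listed for this complex, carried no named probe set. Ezh2 was read by 3 probe sets that gave different values. The brightest, at 10.67, 10.52 and 10.84 in mutant arrays, against 10.74, 10.72 and 10.67 in wild-type arrays, had a difference of -0.03 (SE 0.13, limma adjusted p = 0.922; 95% interval -0.33 to 0.27). A second was at 8.40, 9.16 and 8.79 in mutant arrays, against 8.0, 7.98 and 7.62 in wild-type arrays, with no overlap and a difference of 0.92 (SE 0.23, limma adjusted p = 0.0644; 95% interval 0.40 to 1.44). The dimmest was at 0.27 (SE 0.35), with overlap. The intervals of the first and second did not meet, so the array gives no single value for ezh2.

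None of the remaining subunits of the complex passed. Eed, which binds the mark the complex makes, was at 10.19, 10.02 and 9.94 in mutant arrays, against 10.08, 10.06 and 9.71 in wild-type arrays (0.10, SE 0.16, limma adjusted p = 0.756). Rbbp4, shared with deacetylase complexes, was at 11.76, 11.65 and 11.77 in mutant arrays, against 11.78, 11.86 and 11.93 in wild-type arrays. These arrays did not overlap, by a narrow margin, with a difference of -0.13 (SE 0.11, limma adjusted p = 0.571). Rbbp7 (-0.05), suz12a (-0.20, 95% interval -0.89 to 0.50) and suz12b (0.18, 95% interval -0.33 to 0.68) overlapped between groups. Of the 8 probe sets of the complex 1 was separated higher and 1 lower, where 27.0% of all tested probe sets were separated in either direction.

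Among histone deacetylases, hdac6 and hdac10 lay lower in every mutant array, and the other 4 tested genes overlapped between groups. Over the array 13.8% of tested probe sets were lower in this way. Hdac6 had log2 signals of 5.89, 6.37 and 6.81 in mutant arrays, against 7.11, 7.80 and 8.84 in wild-type arrays. The spread was wide in both groups, and wild type replicate 3 was the highest. The difference was -1.56 (SE 0.42, limma adjusted p = 0.0827; 95% interval -2.52 to -0.60), a 2.95-fold lower signal in the mutant. It passed without wild type replicate 1 (-1.96, limma adjusted p = 0.0359), where 3.03% of all tested probe sets did, and with the replicate number as a block (limma adjusted p = 0.0339), where 2.40% did. With the actc1b 3' over 5' ratio as a covariate it was at 0.23 (limma adjusted p = 0.905), in a fit that cannot tell that ratio from genotype. With the gapdhs ratio hdac6 kept its sign. Hdac10 was at 7.38, 7.12 and 6.63 in mutant arrays, against 8.22, 7.97 and 7.41 in wild-type arrays (-0.82, SE 0.28, limma adjusted p = 0.150). The groups did not overlap, by a narrow margin, and with the actc1b ratio as a covariate the difference was -1.78 (limma adjusted p = 0.200). The class I genes hdac3 (0.02) and hdac8 (0.14) and the class IIa gene hdac4 (0.47) overlapped between groups. The probe sets of hdac11 and hdac9b lay below the filter.

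No histone lysine methyltransferase passed among 16 tested probe sets for 13 genes (10 above 0 and 6 below, median 0.06). Setdb1a, whose mammalian counterpart places a repressive mark on histone H3 and silences transposable elements, was read by 2 probe sets. The dimmer was at 7.16, 6.80 and 7.39 in mutant arrays, against 5.62, 6.13 and 6.20 in wild-type arrays. All mutant arrays were higher, by 1.14 (SE 0.28, limma adjusted p = 0.0628; 95% interval 0.50 to 1.77), a 2.20-fold higher signal. The brighter was at 8.29, 8.55 and 8.13 in mutant arrays, against 8.21, 8.21 and 8.46 in wild-type arrays, a difference of 0.03 (SE 0.18) with a 95% interval of -0.39 to 0.45. The 2 intervals did not meet. Its paralog setdb1b was at 0.35 (95% interval -0.03 to 0.74), without overlap between groups. Of genes tied to activating marks, kmt2ba, of the trithorax family, was at -0.21 (95% interval -0.66 to 0.24) and kmt2ca at 0.11 (-0.54 to 0.76). The 2 probe sets of kmt2e were at 0.13 and 0.61, that of 0.61 with a 95% interval of -0.26 to 1.47, and all of these overlapped between groups. Smyd2a was at -0.04, and smyd4 was at -0.51 with a 95% interval of -1.15 to 0.14, lower in every mutant array. The tested probe set of setdb2 was at -0.26 (95% interval -0.71 to 0.20), also lower without overlap. Thus 2 of the 16 probe sets were separated higher and 2 lower, where 27.0% of all tested probe sets were separated in either direction. The muscle genes smyd1a and smyd1b carried no named probe set and are not analysed here.

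The PR domain family of prdm1a itself was represented by prdm9 and prdm14. Prdm9, known in mammals for marking sites of meiotic recombination, was at 7.25, 7.41 and 7.53 in mutant arrays, against 6.88, 7.34 and 7.06 in wild-type arrays. The groups overlapped, with a difference of 0.31 (SE 0.22, limma adjusted p = 0.470; 95% interval -0.19 to 0.80). Prdm14, whose mammalian counterpart acts in pluripotent and germ cells, lay below the filter at 4.67, 3.22 and 5.29 in mutant arrays, against 4.32, 5.23 and 4.77 in wild-type arrays.

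Of 11 tested probe sets of histone lysine demethylases none passed, while 9 lay above 0. Their median log2 fold change was 0.19, beside 0.02 over all tested probe sets, and the share above 0 over the array was not counted. Besides kdm1a, kdm5c, which removes an activating mark from histone H3, lay higher in every mutant array, by 0.19 (95% interval -0.10 to 0.47). These were 2 of the 11, where 13.2% of all tested probe sets were separated higher. The other values ran from -0.14, for kdm2aa and kdm8, to 0.69, for a kdm7aa probe set of low signal whose 95% interval was -0.48 to 1.85. Kdm6ba, a demethylase of the Polycomb mark, was at 0.24, and the brightest probe set of kdm6al, its relative, at 0.03. Of 18 demethylase probe sets, 7 lay below the filter.

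DNA methyltransferases showed no change past the test in 5 probe sets for 4 genes. The maintenance enzyme gene dnmt1 was at 10.93, 11.06 and 10.91 in mutant arrays, against 10.98, 11.17 and 11.20 in wild-type arrays (-0.15, SE 0.12, limma adjusted p = 0.545; 95% interval -0.43 to 0.13). Of the de novo enzyme genes, the brighter dnmt3ba probe set was at 0.03 (95% interval -0.37 to 0.43), the dimmer at 0.13, and dnmt3bb.2 at 0.09. Dnmt3bb.3 was at 7.32, 7.37 and 7.43 in mutant arrays, against 7.14, 6.90 and 6.34 in wild-type arrays. Its mutant arrays lay close together above a wider wild-type group, with a difference of 0.58 (SE 0.25, limma adjusted p = 0.243). Over the array 13.2% of tested probe sets were separated higher. With the actc1b ratio as a covariate dnmt3bb.3 was at -0.04, and with the gapdhs ratio it kept its sign.

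Remodelers of the SWI/SNF, ISWI and CHD families use ATP to move or evict nucleosomes. None of their 20 tested probe sets passed. The largest fitted difference was that of smarca4a, which encodes the ATPase Brg1 of SWI/SNF complexes, and it held for 1 of its 2 probe sets. The dimmer was at 9.53, 9.28 and 9.87 in mutant arrays, against 8.94, 8.12 and 6.95 in wild-type arrays. All mutant arrays were higher, but the wild-type arrays spread over a 3.97-fold range, with replicate 3 lowest, and the difference was 1.56 (SE 0.43, limma adjusted p = 0.0837; 95% interval 0.59 to 2.52). It passed without wild type replicate 1 (2.02, limma adjusted p = 0.0216), where 3.03% of all tested probe sets did. With the actc1b ratio as a covariate it was at -0.04 (limma adjusted p = 0.986), and with the gapdhs ratio it kept its sign. The brighter probe set was at 12.49, 12.55 and 12.48 in mutant arrays, against 12.25, 12.45 and 12.59 in wild-type arrays, a difference of 0.08 (SE 0.12, limma adjusted p = 0.762; 95% interval -0.19 to 0.35).

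No other subunit of SWI/SNF complexes passed. The tested probe set of smarca2, the gene of the alternative ATPase, was at -0.28 (95% interval -0.86 to 0.30). Smarcd1 was at 0.22 (95% interval -0.05 to 0.48) and smarce1 at -0.23 (-0.49 to 0.03), both without overlap between groups, and smarcb1a and smarcb1b were at 0.11 and -0.05. Of the 11 tested SWI/SNF and ISWI probe sets, 2 were separated higher and 1 lower. Over the array 27.0% of tested probe sets were separated in either direction. The 2 tested probe sets of smarca5, an ISWI ATPase gene, were at 0.05 and 0.51, that of 0.51 with an SE of 0.32 and a 95% interval of -0.21 to 1.23. In the CHD family, whose Chd4 proteins belong to the deacetylase complex NuRD, chd4a was at 0.13 and the 3 probe sets of chd4b at 0.16, 0.49 and 0.51. The brightest probe set of chd7, a gene known for its part in neural crest development, was at 0.04 with a 95% interval of -0.21 to 0.30.

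Proteins that read histone marks included 12 tested probe sets of bromodomain genes, which bind acetylated histones, and 7 of chromodomain (cbx) genes, which bind methylated histones. Brd3a was at 10.33, 10.96 and 11.19 in mutant arrays, against 10.20, 9.43 and 10.19 in wild-type arrays by its brighter probe set. The groups did not overlap and the difference was 0.89 (SE 0.27, limma adjusted p = 0.109), while the dimmer probe set was at 0.18. Its paralog brd3b lay the other way by its brightest probe set, at 9.96, 10.17 and 10.25 in mutant arrays, against 10.58, 10.44 and 10.53 in wild-type arrays (-0.39, SE 0.14, limma adjusted p = 0.153), with the other 2 probe sets at 0.10 and 0.27. The brightest brd2a probe set was at -0.54 (SE 0.21, limma adjusted p = 0.195), with overlap. Among heterochromatin protein 1 genes, cbx1b was at 0.39 (SE 0.17, limma adjusted p = 0.231) without overlap, cbx1a at -0.25 and cbx3b at -0.12, and the brighter cbx5 probe set at -0.06. The Polycomb genes cbx2 and cbx8a were at -0.08 and -0.84, that of cbx8a from a dim probe set with a 95% interval of -1.69 to 0.01. Of the 12 bromodomain probe sets 1 was separated higher and 1 lower, and of the 7 chromodomain probe sets 1 was separated higher. Over the array 27.0% of tested probe sets were separated in either direction.

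The other RB-binding protein genes shared a name rather than a role, and none of their 7 tested probe sets passed. Rbbp5, a subunit of the complexes that activate trithorax methyltransferases, was at 0.21 (95% interval -0.11 to 0.53 on the log2 scale). Values of rbbp6, rbbp8, rbbp8l and rbbp9 ran from -0.41 to 0.40, both ends from probe sets of rbbp9, and all overlapped between groups.

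**Figure D3:**
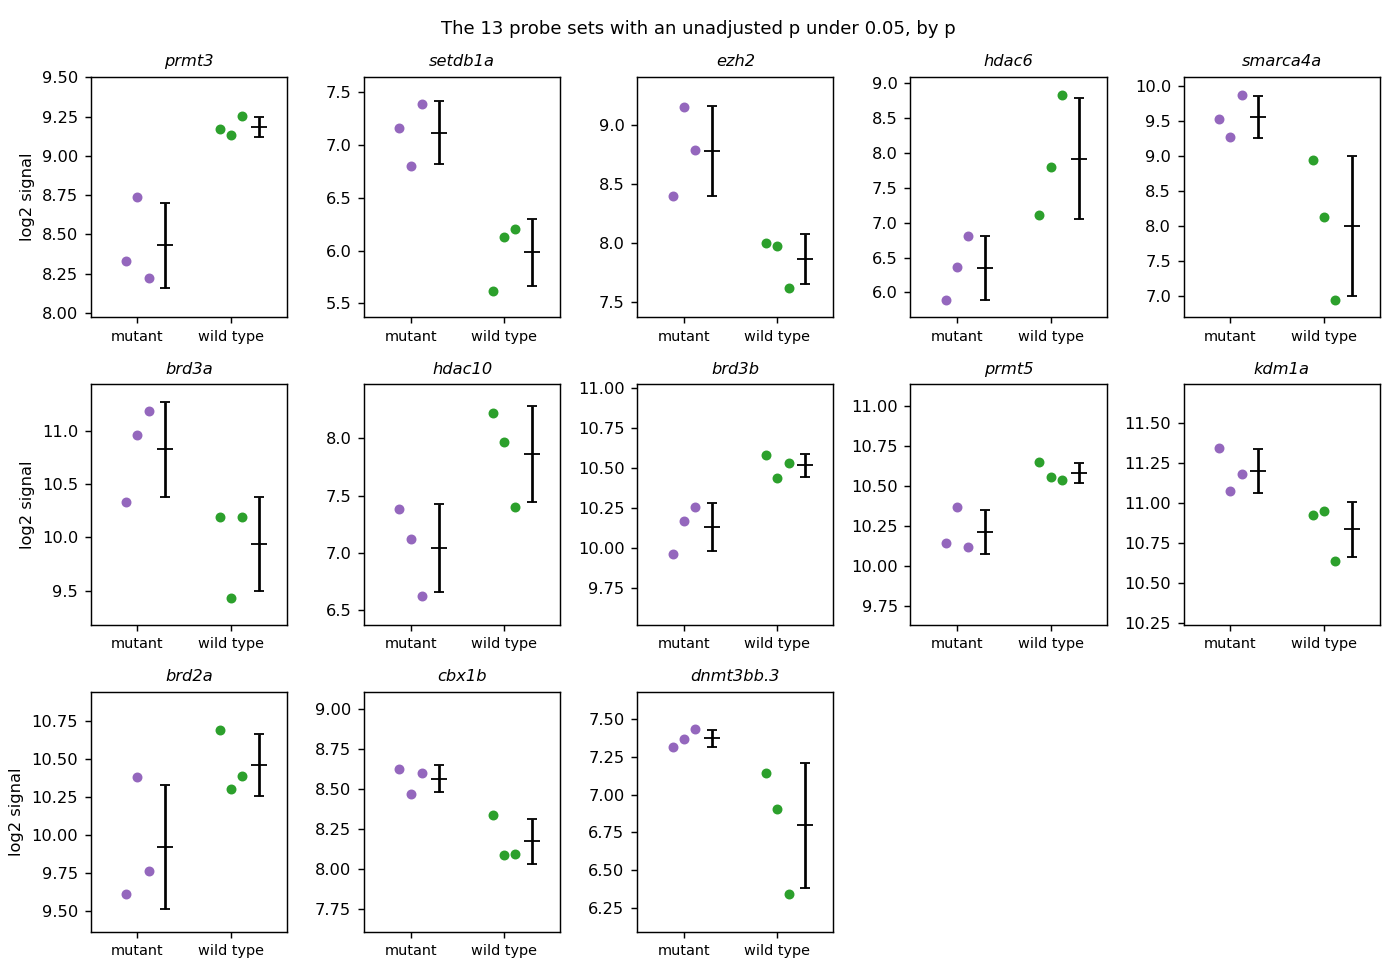
Log2 signal (y axes, each panel with its own range) in the 3 mutant and 3 wild-type arrays for the 13 probe sets with an unadjusted p under 0.05, in order of p; points are arrays in order of replicate number and black marks the mean with its SD. Of the 13, 7 are higher and 6 lower in the mutant, and hdac6 and smarca4a have the widest wild-type spread.

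Holding a 3' over 5' ratio as a covariate moved these 13 differences both ways, and none passed in limma. Few probe sets of any kind passed in these fits, 0.24% of all tested with the actc1b ratio and 0.41% with the gapdhs ratio. With the actc1b ratio the size was larger for 4, at -1.78 for hdac10, 1.66 for brd3a, 1.38 for setdb1a and 1.01 for ezh2. It was smaller for the other 9, and the sign changed for 4 of them, hdac6 (0.23), kdm1a (-0.08), dnmt3bb.3 (-0.04) and smarca4a (-0.04). Prmt3 was then at -0.50, prmt5 at -0.35, brd2a at -0.29, brd3b at -0.22 and cbx1b at 0.17. The limma adjusted p ran from 0.200 to 0.986. With the gapdhs ratio all 13 kept their sign, and the size was smaller for 12, among them hdac6 at -1.5, setdb1a at 1.0, ezh2 at 0.84, hdac10 at -0.63, smarca4a at 0.60, brd3a at 0.52 and prmt3 at -0.48. Only brd3b was larger, at -0.53, and the adjusted p ran from 0.454 to 0.866. Of members outside the 13, the actc1b covariate put cbx8a at -1.49, ezh2's dimmest probe set at 0.89, prmt6 at -0.88, the brightest tle3b probe set at -0.64 and eed at -0.38, with limma adjusted p from 0.372 to 0.653.

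Genes with several probe sets gave a check that the choice of members does not fix. Of 18 such genes with at least 2 tested, 11 had the same sign in all and 7 did not. The range of log2 fold changes within a gene ran from 0.07, for rbbp6, to 1.48, for smarca4a, with a median of 0.44. The 2 probe sets of rbbp6 differ in name only by a suffix, so they may not be independent readings, which was not tested. For 3 genes, smarca4a, setdb1a and ezh2, the 95% intervals of 2 probe sets did not meet. In each of these the brightest probe set was within 0.08 of 0 and a dimmer one was higher in the mutant. Which transcript each probe set reads was not tested, since no probe sequences are used here.

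**Figure D4:**
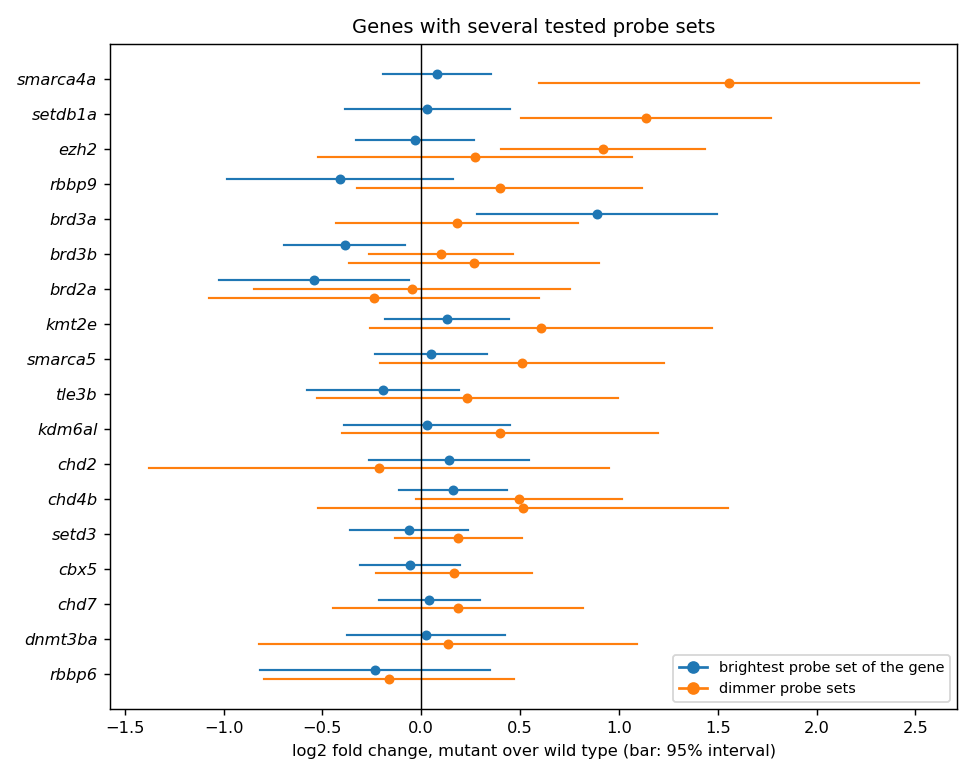
Log2 fold change of mutant over wild type (x axis) for each tested probe set of the 18 genes with more than 1 (y axis), with 95% intervals from limma on 3 arrays per genotype; blue is the brightest probe set of the gene and orange the dimmer ones. For smarca4a, setdb1a and ezh2 the blue interval spans 0 and does not meet that of an orange probe set.

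The 26 probe sets below the filter covered 13 genes with no other probe set above it and had signals between 2.01 and 80.1 on single arrays. In a limma fit of all probe sets without the filter 0 of the 128 passed, where 2.34% of 15502 did, and 14 of the 128 had an unadjusted p under 0.05, where 17.2% of all probe sets did. Arrays of hdac9b, setd4 and smarcc1a were lower and those of kdm4c higher in every mutant array, at mean log2 signals of 4.40, 3.36, 3.78 and 5.21 in mutant arrays, against 5.80, 5.15, 4.87 and 4.5 in wild-type arrays. These 4 were chosen after their values were seen. Of tested probe sets 27.0% were separated in either direction, and the share over all probe sets below the filter was not counted.

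A list of further subunits and partners of the same complexes, chosen by function and outside the symbol rule, gave the same count. The list was drawn up with earlier results of these data known. It held Polycomb repressive complex 1, the Sin3, NCoR, CoREST, NuRD and CtBP corepressors, histone acetyltransferases, Tet enzymes, histone chaperones and other remodeler subunits. Of 115 genes listed, 63 carried a probe set, and 0 of 71 tested probe sets for 59 genes passed in limma. Over the whole array 3.39% of 10851 tested probe sets passed. The median of their log2 fold changes was 0.01, with 36 above 0 and 35 below.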

How the data were processed

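The authors deposited 1 table of linear signal intensities, a value per probe set and array. Per the submitters' processing notes MAS5 was used; those notes give neither its version nor any detection calls. The mean signal after trimming lay at 500.1 on every array. A platform annotation gave 10802 probe sets 1 symbol, 135 several and 4680 none, and all 93 member symbols matched the RefSeq table of the GRCz12tu assembly. Intensities were log2-transformed. Of 15502 probe sets left after 115 controls were set aside, the lowest 30% by mean log2 signal (below 5.36, a signal of 41.1) were left out. The other 10851 were fitted by lmFit and eBayes of limma 3.58.1 (R 4.3.3), with a variance trend and genotype as the only term, and adjusted by Benjamini-Hochberg over all of them. Intervals are limma's, unadjusted. The fit was tested on simulated data with independent normal noise. Those data held no difference in 3' over 5' ratio between groups, so that test does not bear on it. The number of arrays limits the precision.

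Named are members past the threshold, the 8 with the smallest p in each direction, genes of known PRDM1 partners, prdm and DNA methyltransferase genes and Polycomb repressive complex 2; others are named as examples of their role, chosen after their values were seen. Members and lists were chosen with earlier results of these data known. Alternatives were quantile normalization, median centring, offsets of 16 and 64, no filter or one of 50%, other variance models, a replicate block, 3' over 5' ratios as covariates, and each array left out. Figures were drawn with matplotlib 3.10.9.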

Additional observations from a re-analysis of the deposited data

How the results depend on the processing

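The count of chromatin members past the threshold stayed at 0 under all alternatives but 2. With the replicate number as a block it was 1 (hdac6, limma adjusted p = 0.0339), and with single arrays left out it ran from 0 to 2, the 2 being hdac6 and smarca4a without wild type replicate 1. Correlations of deviations were 0.06, 0.05 and -0.07 between same-numbered arrays and -0.12 to 0.07 between the others. Such values cannot settle whether same-numbered arrays were paired. The block gave 260 calls over the array. The count over all probe sets, 368, was 44 with the gapdhs and 26 with the actc1b ratio as a covariate and ran from 114 to 461 over left-out arrays. The median of the members was -0.034 with the actc1b covariate and 0.03 to 0.07 over left-out arrays. Of 538 values of 32 named probe sets under alternatives, 535 kept their side of the threshold and 3 newly passed in the same direction. A change of sign in a value that passed nowhere was not counted. The cause of these shifts was not tested.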
